A study of Mus musculus with 9 samples.

Results

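The chemokine system of mouse bone marrow-derived macrophages (BMDMs) was examined by RNA sequencing, as the genes whose symbol begins with Ccl, Cxcl, Ccr, Cxcr or Ackr and a number, together with Cx3cl1, Cx3cr1, Ccrl2 and Xcr1. This rule used names and no measured value, and 53 of the 28379 genes in the deposited table are described, 31 of them ligands and 22 receptors. BMDMs are macrophages grown out of marrow with M-CSF, the growth factor of this lineage, and they turn into bone-resorbing osteoclasts when RANKL is added. Cells of C57BL/6J mice aged 10 weeks were cultured for 48 h in 3 groups of 3 libraries, and M-CSF was present at 20 ng/mL in every group. The PBS group had no RANKL, the RANKL group had RANKL at 100 ng/mL, and cells labelled RANKL + Vit D + K had the same RANKL with vitamin D (calcitriol) at 1000 nM and vitamin K (MK4) at 20 μM. The vitamins were given only together, so their separate effects cannot be told apart, and the dose of vitamin K is that of the sample labels, which differs from the dose in the study's methods. The methods describe libraries made from pooled RNA and do not say which mice or cultures lie behind a replicate, so p-values measure the spread between these libraries, which may be technical. The sex of the mice behind each library is not given in the sources used here.

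Chemokines are small secreted proteins that direct the movement of cells along gradients, and they are sorted into CC, CXC, CX3C and XC classes by the spacing of their first cysteines. Their receptors are membrane-spanning proteins coupled mostly to inhibitory G proteins, and the atypical receptors bind ligands without that coupling. In the monocyte and osteoclast lineage the receptors CCR2 and CX3CR1 mark circulating precursors, CXCR4 holds cells in the marrow, and ligands of CCR1 such as CCL3 and CCL9 are known products of macrophages and osteoclasts.

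Library totals ranged from 65915112 to 68229647 counts, and a count of 3, used here as the floor, was at most 4.55e-06% of a library. Levels are given as FPKM, fragment counts scaled for transcript length and library size, which sets genes of different length on 1 scale, and values of a group are listed in the order of replicates 1, 2 and 3. A gene was called changed at an adjusted p under 0.05 (edgeR's quasi-likelihood test on the counts, adjusted over the 17002 genes that passed a filter on low counts), and differences are given on the log2 scale with a standard error (SE). Macrophage markers were present in every library, with 26283 to 30490 summed FPKM of 7 genes in the PBS group, 16600 to 24185 with RANKL and 4485 to 11507 with vitamins, where 5 of the 7 fell and Cd68 rose against RANKL. Lyz2 made up most of these sums, at 3189, 10168 and 4852 FPKM with vitamins. Itgam was not called against RANKL (adjusted p = 0.115). All 6 osteoclast markers rose with RANKL and fell when the vitamins were added. Cyp24a1, the vitamin D-inducible enzyme that degrades calcitriol, had 0 counts in each RANKL library and 39, 113 and 64 with vitamins, as the labels imply. Vitamin replicate 2 stood apart from the rest of its group, with correlations across genes of 0.951 and 0.960 with replicates 1 and 3, which had 0.975 with each other. It was the vitamin library nearest to the RANKL mean for 78.3% of all 5725 genes called in that comparison, and for 10 of the 17 chemokine genes called (58.8%). What part the differences in markers had in the results below was not tested. In bulk RNA, fewer cells of a type and less RNA per cell cannot be told apart.

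Of the 53 genes, 35 passed the filter and could be tested. RANKL alone called few of them: 0 were higher and 1, the ligand Ccl6, was lower than in the PBS group, where 2.35% and 1.26% of all tested genes were called in these directions (3.61% in either). At an unadjusted p under 0.05, 4 were higher and 4 lower, beside 9.96% and 8.65% of all genes, and DESeq2 called 1 higher and 3 lower, beside 6.47% and 3.94% of all genes. With the vitamins, 5 were higher and 12 lower than in the RANKL group (17 of 35), where the background was 16.4% higher and 17.2% lower (33.7% in either). Against the PBS group, 7 were higher and 13 lower (20 of 35), beside 19.8% and 21.0% (40.8%) of all genes. These last 2 comparisons share the vitamin libraries, and 15 genes were called in the same direction in both. The share of all genes called in both was not computed, so this count is no result about the members. The median log2 difference of the 35 genes was 0.14 for RANKL against PBS, -1.06 for vitamins against RANKL and -0.97 for vitamins against PBS, beside -0.04 over all genes in each of the 3. Their median size regardless of sign was 1.00, 2.03 and 2.08, beside 0.31, 0.60 and 0.67 over all genes. Setting the genes whose libraries were all at 0 in a group to their bound left the signed medians at 0.14, -1.06 and -0.97. The median sizes were then 0.94, 2.03 and 2.04. Members and all genes were not matched for level, and many members had few counts, so the larger sizes are no result about the members.

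By role, 3 of 20 tested ligands rose and 8 fell against RANKL, and 2 of 15 tested receptors rose and 4 fell, beside 16.4% and 17.2% of all genes. Against PBS, 4 ligands rose and 10 fell, and 3 receptors rose and 3 fell, beside 19.8% and 21.0%. Without replicate 2 of the RANKL and of the RANKL + Vit D + K groups, 6 genes were called higher and 16 lower, including all 5 higher and 11 of the 12 lower calls, Cxcr2 being the exception. Of all 17521 genes tested in that fit, 21.8% were called higher and 27.3% lower. The calls it gained were Cxcr1, higher, and Ccl22, Ccl25, Ccr10, Cx3cr1 and Ccr6, lower, of which Ccr6 did not pass the low-count filter with all 9 libraries. When each of the 9 libraries was left out in turn, 4 of the 5 higher calls (Ccl3, Ccl4, Ccrl2 and Cxcl2) and 6 of the 12 lower calls (Ccl24, Ccr2, Ccr3, Cxcl10, Cxcl16 and Cxcl9) passed in all 9 fits. The share of all called genes that did so was not computed. Over all genes, 2796 were called higher and 2929 lower (48.8% higher), while limma on log2(FPKM + 1) and log2(FPKM + 0.1) gave 37.8% and 36.5% of calls as higher.

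**Figure D1:**
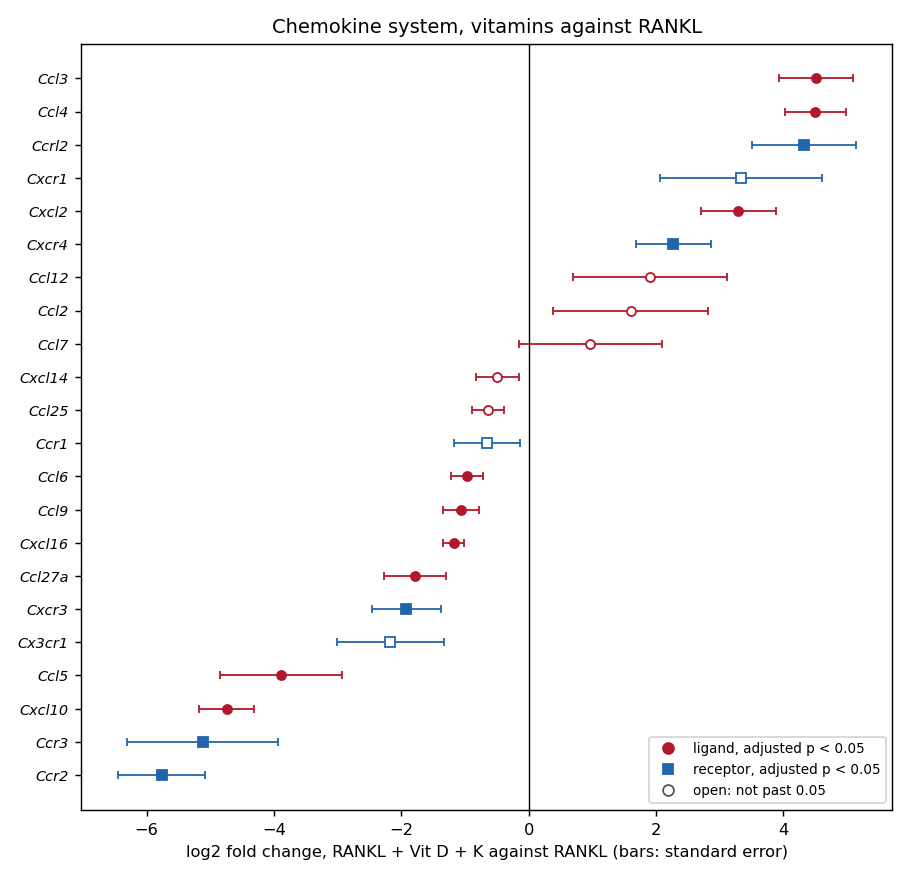
Log2 fold change (x axis) of the named ligands (circles) and receptors (squares) in the RANKL + Vit D + K group against the RANKL group, with bars of 1 standard error and filled symbols for an adjusted p under 0.05. Ccl3, Ccl4, Ccrl2, Cxcl2 and Cxcr4 lie to the right as filled symbols, and Ccr2, Ccr3 and Cxcl10 lie farthest to the left. Genes with no count in the vitamin libraries (Ccl24, Cxcl9 and Cxcr2) are not drawn.

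The leading ligand transcript went from Ccl9 to Ccl3 in vitamin replicates 1 and 3, but not in replicate 2. Summed over the 31 ligand genes, the level was 403, 364 and 341 FPKM in the PBS group, 370, 336 and 324 with RANKL and 646, 410 and 522 with vitamins. Ccl9 was the leading ligand in the PBS and RANKL groups, at 42.7% ± 1.01 and 59.7% ± 2.81 of the sum (SD, n = 3), and it made up 19.6% ± 15.8 with vitamins. Ccl3 went from 12.6% ± 3.65 in the PBS group and 4.36% ± 1.22 with RANKL to 53.6% ± 22.3 with vitamins, where Ccl4 added 12.7% ± 3.87. In the vitamin libraries, in order, Ccl9 made up 8.21%, 37.6% and 12.9% of the sum and Ccl3 70.5%, 28.3% and 62.1%. Without replicate 2 the means were 10.6% for Ccl9 and 66.3% for Ccl3. Ccl6, at 22.2% ± 1.92 in the PBS group, made up 10.1% ± 3.29 with RANKL and 3.22% ± 1.10 with vitamins. These shares are descriptions of FPKM sums, with no test.

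**Figure D2:**
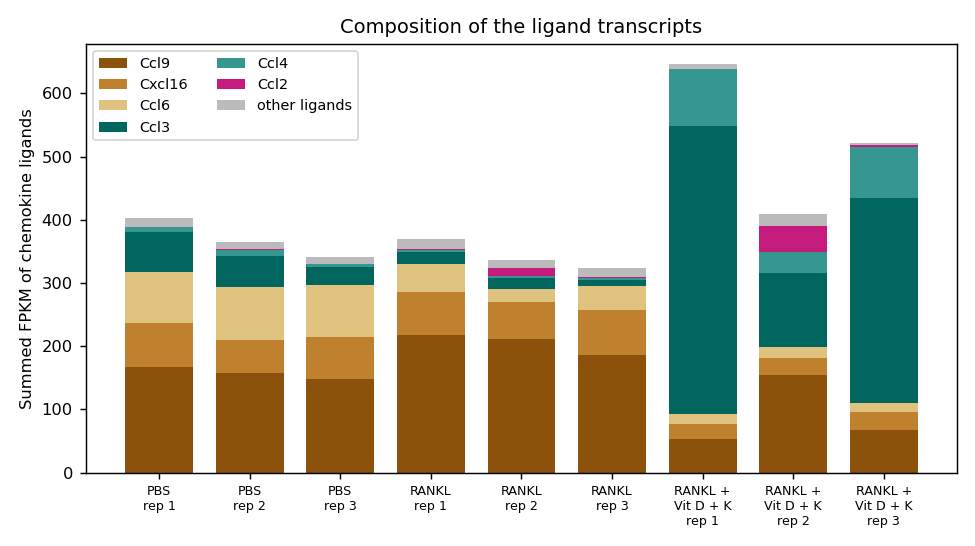
Summed FPKM of the chemokine ligands (y axis, starting at 0) in each of the 9 libraries, stacked by gene. Ccl9, Cxcl16 and Ccl6 fill most of each PBS and RANKL bar, and Ccl3 and Ccl4 fill most of the bars of vitamin replicates 1 and 3, while replicate 2 keeps a large Ccl9 segment and shows Ccl2.

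Ccl3 and Ccl4, inflammatory ligands that macrophages release on activation, had the largest rise of the tested ligands against RANKL. Ccl3 (ENSMUSG00000000982, minus strand, chr11:83647844-83649355) was at 62.9, 49.4 and 29.0 FPKM in the PBS group, 19.2, 16.5 and 9.57 with RANKL and 455, 116 and 324 with vitamins. The 3 groups did not overlap, with RANKL lowest and vitamins highest. Against RANKL the rise was 4.51 (SE 0.575, adjusted p = 0.00113), a 22.7-fold change, and against PBS it was 2.74 (SE 0.530, adjusted p = 0.00390). Ccl4 (ENSMUSG00000018930, plus strand, chr11:83662584-83664683) was at 7.38, 10.4 and 4.19 FPKM in the PBS group, 3.27, 4.21 and 2.92 with RANKL and 90.3, 34.0 and 81.9 with vitamins. Its rise was 4.50 against RANKL (SE 0.482, adjusted p = 0.000615) and 3.30 against PBS (SE 0.454, adjusted p = 0.000888). Vitamin replicate 2 was the lowest of its group for both genes and still lay above every PBS and RANKL library. With RANKL alone the difference from PBS was -1.77 for Ccl3 (SE 0.515, adjusted p = 0.0995) and -1.20 for Ccl4 (SE 0.431, adjusted p = 0.174), neither past the threshold. Both passed when vitamin replicate 2 was left out of the shared fit, with adjusted p = 0.0141 for Ccl3 and 0.0334 for Ccl4.

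Ccl9 and Ccl6, ligands of CCR1 and in the PBS group the most abundant CC ligands, fell with the vitamins. Ccl9 was at 167, 157 and 148 FPKM in the PBS group, 218, 211 and 186 with RANKL and 53.1, 154 and 67.4 with vitamins. It fell by 1.06 against RANKL (SE 0.287, adjusted p = 0.0212), and vitamin replicate 2 lay within the PBS range. Its difference from PBS, of -0.81 (SE 0.286, adjusted p = 0.0489), was lost with RLE size factors (adjusted p = 0.0557) and without any 1 library other than vitamin replicate 2 (adjusted p up to 0.199). Ccl6 was at 80.9, 83.6 and 80.8 FPKM in the PBS group, 44.3, 21.1 and 38.7 with RANKL and 16.2, 18.4 and 13.9 with vitamins, so that each group lay below the one before. It fell by 1.34 with RANKL (SE 0.255, adjusted p = 0.0247) and differed from RANKL by -0.97 with vitamins (SE 0.254, adjusted p = 0.0180) and from PBS by -2.32 (SE 0.263, adjusted p = 0.000417). Ccl6 was the 1 gene called with RANKL alone, and that call was lost without any of PBS replicates 1, 2 and 3 or RANKL replicate 3 (adjusted p = 0.0945, 0.0659, 0.0966 and 0.0582). The call of Ccl9 against RANKL was lost without RANKL replicate 1 or 3 (adjusted p = 0.0702 and 0.0512), without vitamin replicate 1 or 3 (0.0569 and 0.0887) and with only the 2 groups (0.0592). That of Ccl6 against RANKL was lost without RANKL replicate 1 or 3 (0.0724 and 0.0646) and without vitamin replicate 3 (0.0652). Ccl6 overlaps the gene E230016K23Rik on the other strand, and whether the counting used strand is not given in the sources used here.

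Ccl5 and Ccl24 were low in all groups and lower with vitamins. Ccl5, a ligand of CCR1 and CCR3 that attracts T cells and monocytes, was at 1.79, 1.12 and 1.49 FPKM in the PBS group, 2.58, 0.727 and 2.32 with RANKL and 0.199, 0 and 0.10 with vitamins. It fell by 3.89 against RANKL (SE 0.961, adjusted p = 0.0146), and the difference from PBS was -3.65 (SE 0.955, adjusted p = 0.0149). The first call was lost without RANKL replicate 1 (adjusted p = 0.0514), and both were lost without vitamin replicate 3 (0.0539 and 0.0508). The differences were -4.93 and -4.64 without vitamin replicate 1, and -3.28 and -3.04 without replicate 2. Ccl24, an eosinophil attractant that signals through CCR3, had 91, 57 and 98 counts in the PBS group, 64, 35 and 43 with RANKL and 0 in each vitamin library. Set against a floor of 3 counts per library, it was at least 14.2-fold lower than with RANKL and at least 27.3-fold lower than in the PBS group (adjusted p = 0.00115 and 0.000465).

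Ccl25 and Ccl27a, which in other tissues attract T cells to gut and skin, were near 1 FPKM or under. Ccl25 was at 1.17, 1.04 and 1.15 FPKM in the PBS group, 1.01, 0.972 and 0.905 with RANKL and 0.381, 0.870 and 0.453 with vitamins. It fell by 0.98 against PBS (SE 0.249, adjusted p = 0.0131), and its difference from RANKL was -0.64 (SE 0.248, adjusted p = 0.0753). The latter passed with DESeq2 (adjusted p = 0.0427), without vitamin replicate 2 (-0.98, adjusted p = 0.00170) and without replicate 2 of both RANKL groups (-1.04, adjusted p = 0.00197). Without PBS replicate 1 or 3, or vitamin replicate 1 or 3, the call against PBS was lost (adjusted p = 0.0585, 0.0562, 0.0530 and 0.0699). Ccl27a was at 0.525, 0.912 and 1.21 FPKM in the PBS group, 1.15, 0.481 and 1.01 with RANKL and 0.157, 0.360 and 0.156 with vitamins. It fell, with a difference of -1.79 against RANKL (SE 0.485, adjusted p = 0.0212) and -1.90 against PBS (SE 0.487, adjusted p = 0.0134). The first was lost without RANKL replicate 1 or 3 or vitamin replicate 1 or 3 (adjusted p = 0.0777, 0.0670, 0.0696 and 0.0800), and the second without PBS replicate 3 or vitamin replicate 3 (0.0573 and 0.0563). Of the 100-base words in Ccl27a transcripts, 26.5% also occur in other genes, and it overlaps Il11ra1 on the other strand, so its counts are uncertain. Ccl25 likewise overlaps Elavl1 on the other strand.

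Of the CCR2 ligands Ccl2, Ccl7 and Ccl12, which recruit monocytes, the first pair had 1 library far above the rest in each RANKL group. Ccl2 was at 1.10, 1.17 and 0.297 FPKM in the PBS group, 2.34, 11.6 and 1.28 with RANKL and 1.34, 40.4 and 1.96 with vitamins. Ccl7 was at 0.323, 0.224 and 0.126 FPKM, then 0.676, 3.03 and 0.385, then 0.250, 6.92 and 0.448 in the same order. For both genes replicate 2 was the highest library of the RANKL group and of the RANKL + Vit D + K group. The rise of Ccl2 against PBS was 3.97 (SE 1.36, adjusted p = 0.0430), and the difference was 1.02 without vitamin replicate 2 (adjusted p = 0.351) and 4.57 without replicate 1. The call was also lost without any of the PBS replicates (adjusted p = 0.103, 0.0944 and 0.127) and without RANKL replicate 1 (0.0582). With all libraries of the compared groups it was lost with limma on log2(FPKM + 1) and log2(FPKM + 0.1) (0.177 and 0.130). No filter on low counts (0.0683) and a fit of only the 2 groups (0.0595) lost it as well. Against RANKL the difference of Ccl2 was 1.60 (SE 1.22, adjusted p = 0.342), and it turned to -1.35 (adjusted p = 0.244) without vitamin replicate 2. For Ccl7 the difference from RANKL was 0.97 (SE 1.13, adjusted p = 0.544) and turned to -1.70 (adjusted p = 0.153) without vitamin replicate 2. Its difference from PBS was 3.33 (SE 1.26, adjusted p = 0.0602). With 1 library left out it ranged from 0.66 to 3.93 (adjusted p up to 0.558), and it passed without vitamin replicate 1 (3.93, adjusted p = 0.0326) or 3 (3.89, adjusted p = 0.0497). It also passed with DESeq2 (adjusted p = 0.00687). Ccl12 had 11, 0 and 0 counts in the PBS group, 15, 16 and 7 with RANKL and 55, 64 and 12 with vitamins, and its vitamin libraries lay above all PBS libraries. Its difference from PBS was 3.50 (SE 1.33, adjusted p = 0.0615) and passed only without PBS replicate 1 (adjusted p = 0.0101) among the fits with a library left out. With all 9 libraries it passed with DESeq2 (adjusted p = 0.0194) and with limma on log2(FPKM + 1) and log2(FPKM + 0.1) (0.0181 and 0.0130).

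Among the CXC ligands, 1 of 7 tested rose and 3 fell against RANKL, beside 16.4% and 17.2% of all genes. Cxcl2, a neutrophil attractant that signals through CXCR2, was at 1.45, 0.754 and 0.852 FPKM in the PBS group, 0.413, 0.790 and 0.250 with RANKL and 3.23, 8.36 and 1.84 with vitamins. All 3 vitamin libraries lay above all others, and here replicate 2 was the highest. The rise was 3.29 against RANKL (SE 0.587, adjusted p = 0.00401) and 2.08 against PBS (SE 0.556, adjusted p = 0.0161), the second lost without PBS replicate 2 or 3 (adjusted p = 0.0567 and 0.0585). Without vitamin replicate 2 they were 2.60 and 1.40. Of its near relatives, Cxcl1 had 4 to 54 counts per library and a difference of 1.27 from RANKL (SE 0.788, adjusted p = 0.245), and Cxcl3 had 4 to 46 counts and a difference of 0.54 (SE 1.00, adjusted p = 0.708).

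The interferon-inducible CXCR3 ligands went the other way. Cxcl10 was at 6.09, 3.40 and 3.20 FPKM in the PBS group, 7.84, 4.83 and 7.19 with RANKL and 0.175, 0.363 and 0.131 with vitamins. It fell by 4.74 against RANKL (SE 0.432, adjusted p = 0.000362), a 26.6-fold change, and differed from PBS by -4.21 (SE 0.424, adjusted p = 0.000296), and it passed in every fit with a library left out. Cxcl9 had 12, 12 and 4 counts in the PBS group, 13, 8 and 36 with RANKL and 0 in each vitamin library, at least 5.71-fold lower than with RANKL (adjusted p = 0.0105) and at least 3.08-fold lower than in the PBS group (adjusted p = 0.0138). RANKL replicate 3 held most of the RANKL counts, and without it the call against RANKL stood (adjusted p = 0.0381). The third ligand, Cxcl11, had 15 counts at most and was not tested. Cxcl10 overlaps Art3 on the other strand.

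Cxcl16, a membrane-bound ligand of CXCR6 that also takes up oxidised lipoprotein, was the most abundant CXC ligand in every library. It was at 69.6, 52.3 and 67.3 FPKM in the PBS group, 67.0, 58.5 and 71.2 with RANKL and 23.2, 27.0 and 28.6 with vitamins, with little spread inside any group. It fell by 1.18 against RANKL (SE 0.161, adjusted p = 0.00143), and its difference from PBS was -1.24 (SE 0.162, adjusted p = 0.000702). Cxcl16 overlaps Zmynd15 on the other strand. Its receptor gene Cxcr6 had 15 to 45 counts per library and a difference of 0.08 (SE 0.587, adjusted p = 0.931). Cxcl14 was at 1.12, 1.78 and 1.95 FPKM in the PBS group, 0.486, 0.824 and 0.914 with RANKL and 0.479, 0.572 and 0.372 with vitamins. It fell by 1.74 against PBS (SE 0.347, adjusted p = 0.00447), while the step from PBS to RANKL was -1.25 (SE 0.341, adjusted p = 0.0830) and that from RANKL to vitamins -0.49 (SE 0.341, adjusted p = 0.297). The step from PBS to RANKL passed without vitamin replicate 2 (adjusted p = 0.0484) and with DESeq2 (0.0105).

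**Figure D3:**
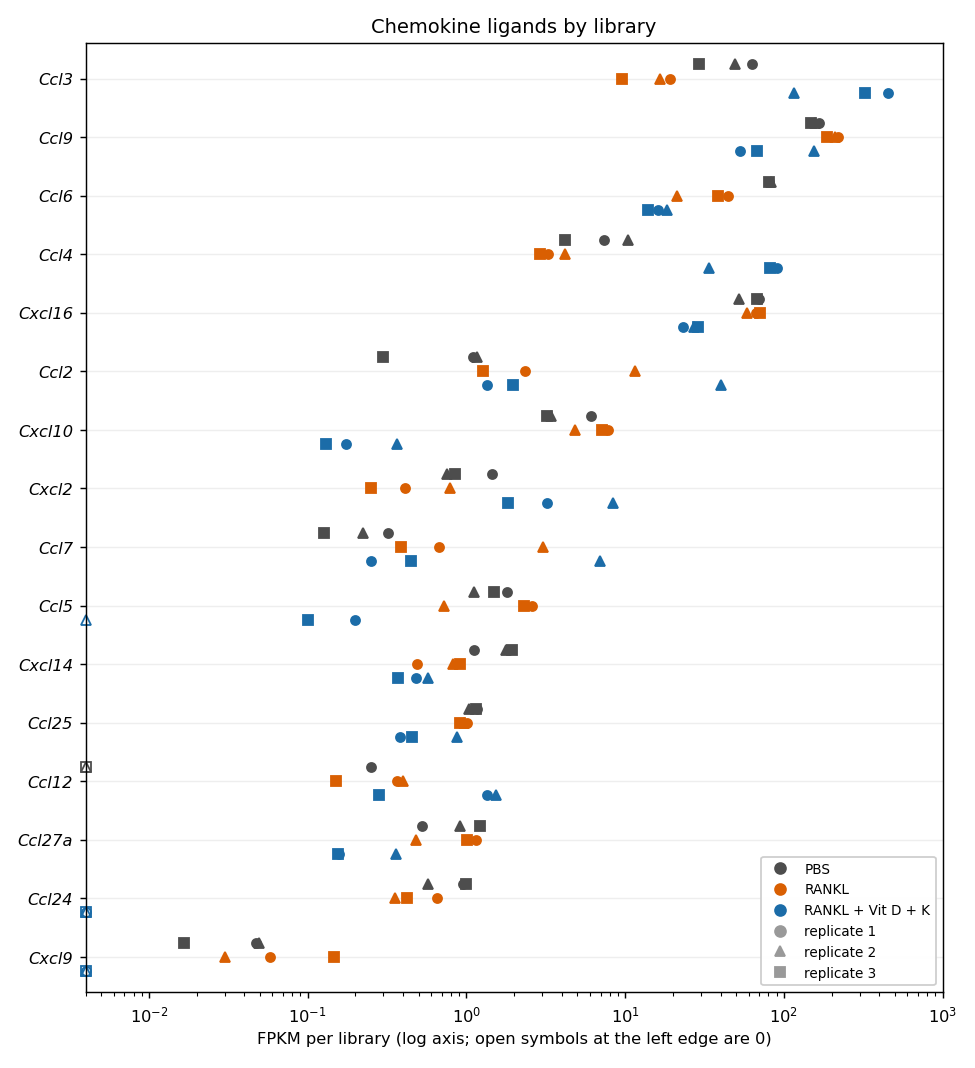
FPKM of each named ligand (log x axis) in the 9 libraries, coloured by group with 1 symbol shape per replicate number; open symbols at the left edge are 0. The vitamin libraries of Ccl3, Ccl4 and Cxcl2 lie to the right of all others, those of Cxcl10, Cxcl16 and Ccl24 lie to the left, and the triangles of replicate 2 stand out for Ccl2 and Ccl7.

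The stretch before the transcription start was read for genes that rose and genes that fell, since both directions occur among near relatives. RefSeq (GRCm38.p6) gave 50 promoter records for 41 of the 53 genes, and the 250 bases before each start were searched on both strands. The NF-κB consensus was found in 18.0% of these 50 windows and in 3.90% of all 32851 windows of the same length. It occurred before 9 genes, Cxcl1, Cxcl2, Cxcl3, Cxcl10, Ccl9, Ccr3, Ccr6, Ccrl2 and Ackr2. Among genes called against RANKL with a record, it stood in 2 of 6 windows of those that rose and 3 of 11 of those that fell. The AP-1 word TGANTCA was in 12.0% of the members' windows and 6.75% of all, and in 0 of 6 windows of genes that rose and 4 of 11 of genes that fell. The interferon response core was in 4.0% and 2.98%, and the ATF4-C/EBP word TGATGNAA in 4.0% and 3.45%. The vitamin D response element of the DR3 type was in 0 of the 50 windows and in 0.0396% of all. Below are the windows of 2 genes that rose (Cxcl2, Ccrl2) and 2 that fell (Cxcl10, Ccr3), chosen because each holds the NF-κB consensus, with matches to any of the words searched in capitals. In Cxcl2 a pair of overlapping NF-κB matches make 1 run of capitals, and the Cxcl10 window holds, in order, the interferon core, NF-κB, NF-κB and AP-1. A match describes the letters and not a bound site.
Cxcl2, plus strand, chr5:90903649-90903898: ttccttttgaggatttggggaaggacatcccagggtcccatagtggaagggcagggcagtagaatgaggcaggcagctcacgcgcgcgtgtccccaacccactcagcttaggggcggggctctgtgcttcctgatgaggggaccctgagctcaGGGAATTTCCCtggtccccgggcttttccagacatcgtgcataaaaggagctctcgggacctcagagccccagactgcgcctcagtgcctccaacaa
Ccrl2, minus strand, chr9:111057519-111057768: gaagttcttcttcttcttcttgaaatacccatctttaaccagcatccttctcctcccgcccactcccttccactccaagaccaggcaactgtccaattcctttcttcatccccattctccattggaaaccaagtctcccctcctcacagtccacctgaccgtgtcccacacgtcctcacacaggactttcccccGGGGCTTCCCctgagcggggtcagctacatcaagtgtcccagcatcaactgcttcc
Cxcl10, minus strand, chr5:92348890-92349139: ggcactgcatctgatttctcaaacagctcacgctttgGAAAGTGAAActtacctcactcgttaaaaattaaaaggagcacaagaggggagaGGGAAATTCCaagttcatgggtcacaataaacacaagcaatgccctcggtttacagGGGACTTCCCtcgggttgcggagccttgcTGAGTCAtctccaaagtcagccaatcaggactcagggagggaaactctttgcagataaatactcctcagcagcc
Ccr3, plus strand, chr9:124021721-124021970: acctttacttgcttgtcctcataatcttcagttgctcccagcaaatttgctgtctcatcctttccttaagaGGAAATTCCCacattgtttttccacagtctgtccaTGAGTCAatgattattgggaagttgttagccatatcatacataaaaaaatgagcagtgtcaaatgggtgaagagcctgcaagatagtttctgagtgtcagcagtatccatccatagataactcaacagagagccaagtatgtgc

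Among the tested genes with counts in at least 1 vitamin library, the CC receptors Ccr2 and Ccr3 had the largest falls against RANKL. Ccr2, the receptor that lets monocytes answer CCL2, was at 22.7, 22.7 and 16.9 FPKM in the PBS group, 26.7, 11 and 19.5 with RANKL and 0.125, 0.735 and 0.140 with vitamins. It fell by 5.76 against RANKL (SE 0.684, adjusted p = 0.000881), a 54.0-fold change, and its difference from PBS was -5.99 (SE 0.691, adjusted p = 0.000430), while with RANKL alone it overlapped the PBS libraries (-0.23, SE 0.551, adjusted p = 0.880). Both calls passed in every fit with a library left out, and without vitamin replicate 2 the differences were -6.93 and -7.16. Of the 100-base words in Ccr2 transcripts, 0.790% occur in other genes.

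Ccr3, the receptor of eosinophils for CCL24 and related ligands, had 73, 26 and 29 counts in the PBS group, 210, 318 and 141 with RANKL and 0, 18 and 0 with vitamins. The groups did not overlap in any comparison, with RANKL highest and vitamins lowest. The difference of vitamins from RANKL was -5.12 (SE 1.18, adjusted p = 0.0108). The difference of RANKL from PBS was 2.22 (SE 0.994, adjusted p = 0.274) and passed without vitamin replicate 2 (adjusted p = 0.0381). It also passed with limma on log2(FPKM + 1) and log2(FPKM + 0.1) (0.0311 and 0.0442) and with only the 2 groups (0.0340). That of vitamins from PBS was -2.91 (SE 1.11, adjusted p = 0.0629). It passed with DESeq2 (adjusted p = 0.0167) and without vitamin replicate 2 (adjusted p = 0.00107). The 18 counts of that library set the fitted differences with vitamins, since the other vitamin libraries were at 0, and without it the call against RANKL stood (adjusted p = 0.000285).

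Ccr1, the receptor of osteoclasts and macrophages for CCL3, CCL5, CCL6 and CCL9, was the CC receptor that rose, against PBS. It was at 1.09, 4.65 and 1.47 FPKM in the PBS group, 10.8, 20.0 and 7.68 with RANKL and 5.41, 10.7 and 6.06 with vitamins, and replicate 2 was the highest library in each group. The rise with RANKL was 2.28 (SE 0.544) and missed the threshold (adjusted p = 0.0539). With the replicate number as a block, the rise was 2.44 (SE 0.286, adjusted p = 0.00806). That block covered all 9 libraries, although the vitamin libraries were not paired, and the pairing of RANKL and PBS libraries was read from these data. The members called higher with RANKL went from 0 to 1 of 35, beside 3.16% of all genes in that fit. Against PBS the rise with vitamins was 1.63 (SE 0.533, adjusted p = 0.0366), and the difference from RANKL was -0.66 (SE 0.519, adjusted p = 0.359). Without PBS replicate 2 the rise with vitamins was 2.55. The call against PBS was lost without PBS replicate 1 or 3 (adjusted p = 0.101 and 0.114), RANKL replicate 1 (0.0546) or vitamin replicate 2 or 3 (0.0762 and 0.0611). It was also lost with no filter (0.0595) and with only the 2 groups (0.0563). The rise with RANKL passed without PBS replicate 2 (3.22, adjusted p = 0.0204) or vitamin replicate 2 (adjusted p = 0.0326).

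The other tested CC receptors had low counts. Ccr7, the receptor that sends dendritic cells to lymph nodes, had at most 4 counts in PBS libraries, 55, 29 and 7 with RANKL and 16, 0 and 0 with vitamins. Ccr9 and Ccr10, receptors for CCL25 and CCL27, had 75 and 66 counts at most. None of these 3 passed in any comparison of all 9 libraries, with adjusted p values against RANKL of 0.319, 0.403 and 0.0617. Ccr10 was at 0.505, 0.430 and 0.464 FPKM with RANKL and 0.182, 0.273 and 0.146 with vitamins, a difference of -1.08 (SE 0.394), and these groups did not overlap. Without replicate 2 of both RANKL groups this difference passed (-1.40, SE 0.488, adjusted p = 0.0446). The gene model of Ccr9 in the table spans chr9:123678439-123783457 and covers Lztfl1 and Slc6a20a, so its counts are uncertain.

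Cxcr4, the receptor for the marrow chemokine CXCL12, was the most abundant receptor in every library. It was at 68.2, 76.1 and 83.1 FPKM in the PBS group, 52.6, 33.5 and 68.7 with RANKL and 318, 55.0 and 283 with vitamins. Vitamin replicates 1 and 3 lay far above all others and replicate 2 lay inside the RANKL range, so the groups overlapped. The rise against RANKL was 2.27 (SE 0.591, adjusted p = 0.0178), and against PBS 1.61 (SE 0.578, adjusted p = 0.0509). The first was lost without RANKL replicate 1 or 2 (adjusted p = 0.0624 and 0.0566) or vitamin replicate 1 or 3 (0.0555 and 0.0572), and the second passed without vitamin replicate 2 (2.08, adjusted p = 0.000338). The second also passed with RLE size factors (0.0492), with DESeq2 (0.00693) and with at least 50 counts in at least 3 libraries (0.0420). Summed over the 22 receptor genes, the level was 105, 115 and 113 FPKM in the PBS group, 105, 78.8 and 111 with RANKL and 365, 76.4 and 324 with vitamins, of which Cxcr4 made up 68.3% ± 4.72, 51.5% ± 9.76 and 82.2% ± 8.83 (SD, n = 3). Its ligand gene Cxcl12 had at most 18 counts and was at 0 in each vitamin library.

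Cxcr3, the receptor for CXCL9 and CXCL10, fell with the vitamins as its ligands did. It was at 3.84, 3.98 and 2.92 FPKM in the PBS group, 4.51, 2.51 and 3.11 with RANKL and 0.227, 1.63 and 0.661 with vitamins. The difference was -1.92 against RANKL (SE 0.542, adjusted p = 0.0242) and -2.12 against PBS (SE 0.545, adjusted p = 0.0137). The first was lost without RANKL replicate 1 or 3 or vitamin replicate 3 (adjusted p = 0.0853, 0.0576 and 0.0899), and the second without vitamin replicate 3 (0.0582). Without vitamin replicate 2 the differences were -2.71 and -2.91.

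The neutrophil receptor genes Cxcr2 and Cxcr1 lie side by side on chromosome 1 and went in opposite directions at low counts. Cxcr2 had 25, 29 and 0 counts in the PBS group, 18, 36 and 14 with RANKL and 0 in each vitamin library, at least 6.70-fold lower than with RANKL (adjusted p = 0.0307) and at least 5.91-fold lower than in the PBS group (adjusted p = 0.0284). Without any 1 of PBS replicates 1 and 2, the 3 RANKL replicates and vitamin replicates 1 and 3, the call against RANKL was lost (adjusted p from 0.0509 to 0.0765). The call against PBS was lost without PBS replicate 1 or 2 or vitamin replicate 1 or 3 (0.0723, 0.0694, 0.0603 and 0.0666). Neutrophil markers moved with it: their summed FPKM over 10 genes was 108 to 261 in the PBS group, 53.1 to 188 with RANKL and 15.1 to 32.7 with vitamins, and 7 of 9 tested fell against RANKL. Mmp8 made up most of the vitamin sums, at 14.3, 31.0 and 25.5 FPKM, and it was also lower with RANKL than in the PBS group (-1.48, SE 0.231, adjusted p = 0.0125). The other 9 genes summed to 11.1 to 128 FPKM in the PBS group, 11.3 to 148 with RANKL and 0.551 to 1.72 with vitamins. S100a9, a subunit of the neutrophil protein calprotectin, was at 32.7, 56.5 and 3.98 FPKM in the PBS group, 36.0, 66.9 and 3.66 with RANKL and 0, 0.375 and 0 with vitamins, and Ly6g had 7 counts in 1 PBS library and 0 elsewhere. Their part in the Cxcr2 result was not tested. Cxcr1 had 0 counts in each PBS library, 5, 0 and 8 with RANKL and 68, 11 and 38 with vitamins. It was at least 13.7-fold higher than in the PBS group (adjusted p = 0.0119), and its difference from RANKL was 3.33 (SE 1.27, adjusted p = 0.0815), which passed without vitamin replicate 2 (3.80, adjusted p = 0.0442). That difference also passed with DESeq2 (adjusted p = 0.0454) and with limma on log2(FPKM + 1) and log2(FPKM + 0.1) (0.0482 and 0.0320).

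**Figure D4:**
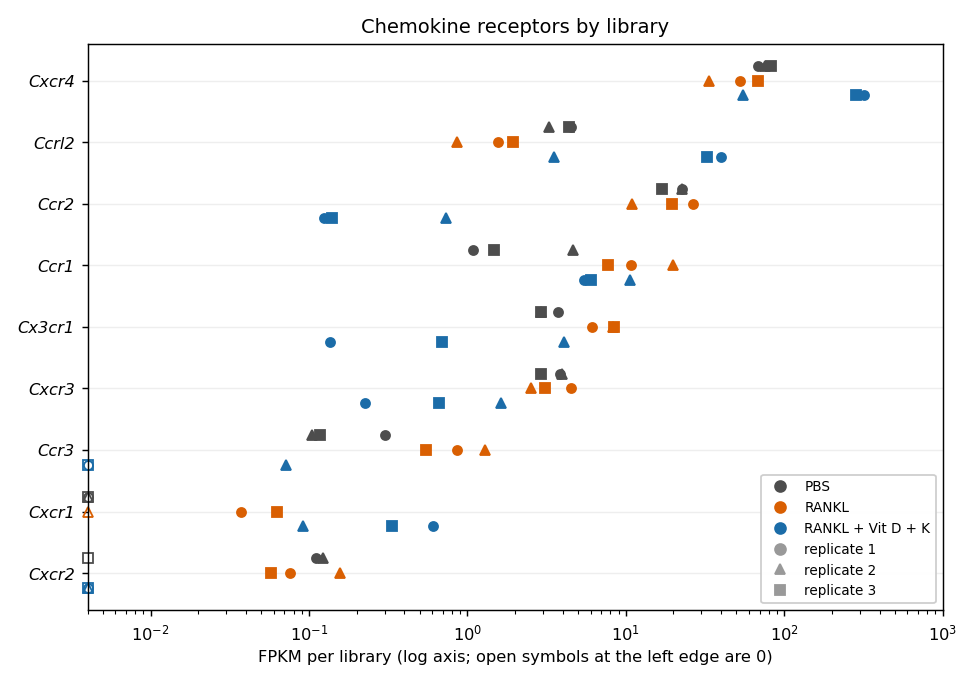
FPKM of each named receptor (log x axis) in the 9 libraries, coloured by group with 1 symbol shape per replicate number; open symbols at the left edge are 0. The vitamin libraries of Ccr2 and Ccr3 lie to the left of all others, and for Cxcr4 and Ccrl2 replicates 1 and 3 lie to the right while replicate 2 stays near the other groups.

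Cx3cr1, the receptor for the membrane chemokine CX3CL1 and a marker of monocyte precursors, depended on 1 library. It was at 3.71, 2.91 and 2.92 FPKM in the PBS group, 6.12, 8.34 and 8.45 with RANKL and 0.136, 4.10 and 0.690 with vitamins. The PBS and RANKL groups did not overlap, nor did the RANKL and vitamin groups. The difference of vitamins from RANKL was -2.17 (SE 0.847, adjusted p = 0.0765), and without vitamin replicate 2 it was -4.0 (SE 0.573, adjusted p = 0.000570). Against PBS it was -1.03 (SE 0.823, adjusted p = 0.345), and -2.87 without that library (adjusted p = 0.00241). RANKL against PBS was 1.14 (SE 0.821, adjusted p = 0.519), and in a fit of these 2 groups alone it was 1.19 (SE 0.165, adjusted p = 0.00827). The difference of vitamins from RANKL also passed with limma on log2(FPKM + 1) (adjusted p = 0.0106) and on log2(FPKM + 0.1) (adjusted p = 0.0203). The gene model in the table, chr9:119901616-120068296, covers Gorasp1, Csrnp1 and Xirp1 on the same strand, so reads of these genes may be counted with it. Its ligand gene Cx3cl1 had at most 31 counts per library, and Xcr1, a receptor of dendritic cells, had at most 54; neither passed in any comparison, with adjusted p = 0.419 and 0.0543 for vitamins against RANKL.

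Ccrl2, an atypical receptor that binds chemerin and presents it to other cells, rose with the vitamins. It was at 4.49, 3.28 and 4.40 FPKM in the PBS group, 1.57, 0.855 and 1.94 with RANKL and 40.2, 3.54 and 32.4 with vitamins. Replicate 2 lay inside the PBS range, and the other 2 vitamin libraries were well above it. The rise was 4.32 against RANKL (SE 0.812, adjusted p = 0.00500) and 2.73 against PBS (SE 0.753, adjusted p = 0.0186), and RANKL alone differed from PBS by -1.59 (SE 0.734, adjusted p = 0.288). The call against PBS was lost without any of the 3 PBS replicates (adjusted p = 0.0544, 0.0594 and 0.0536) or vitamin replicate 1 (0.0523). It was also lost with limma on log2(FPKM + 1) and log2(FPKM + 0.1) (0.0578 and 0.0635). The difference of RANKL from PBS passed without vitamin replicate 2 (adjusted p = 0.0154) and in a fit of only these 2 groups (0.0290). Of the genes named Ackr, Ackr4 was the 1 tested, with 3 to 37 counts and a difference of -2.03 from RANKL (SE 0.703, adjusted p = 0.0515). Ackr1, Ackr2 and Ackr3 had at most 8 counts in any library.

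Many of these genes sit in runs, and the 2 directions met within a run. On chromosome 11, Ccl5, Ccl9, Ccl6, Ccl3 and Ccl4 lie within 139 kb, and with vitamins the first 3 fell while Ccl3 and Ccl4, next to each other, rose. The run of Ccl2, Ccl7, Ccl12 and Ccl8 on the same chromosome (81.2 kb) had no call against RANKL. On chromosome 9, 7 of the receptor genes described lie within 435 kb, and the 2 called against RANKL, Ccr3 and Ccr2, lie next to each other and both fell. On chromosome 5, Cxcl2 rose at the end of a run of 5 genes (147 kb) whose other members were untested or not called, and Cxcl9 and Cxcl10 fell in another run (44.1 kb). Neighbours are not independent, so this is a description with no test.

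**Figure D5:**
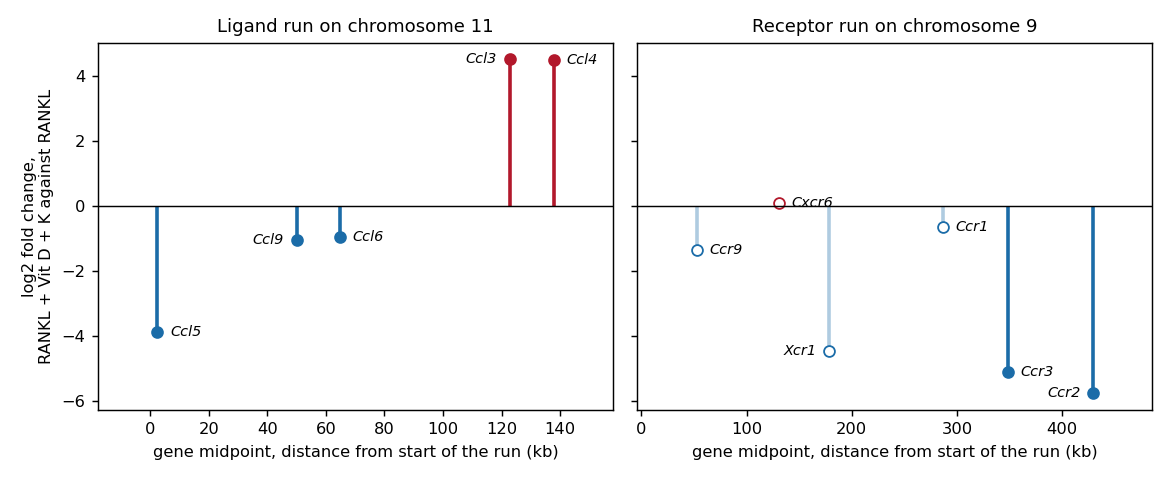
Log2 fold change of the RANKL + Vit D + K group against the RANKL group (y axis) by position (x axis, kb from the start of the run) for the tested genes of the CC ligand run on chromosome 11 and the receptor run on chromosome 9; filled symbols have an adjusted p under 0.05. Ccl3 and Ccl4 rise beside 3 genes that fall, and Ccr3 and Ccr2 fall beside each other in the receptor run.

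The 10 tested genes below 1 FPKM without a call were Ccl22, Cxcl1, Cxcl3, Cx3cl1, Ccr7, Ccr9, Ccr10, Cxcr6, Xcr1 and Ackr4. Ccl22, a ligand of CCR4 made by dendritic cells, had 6, 0 and 0 counts in the PBS group, 31, 40 and 27 with RANKL and 0, 4 and 0 with vitamins. Its difference was 3.78 with RANKL (SE 1.46, adjusted p = 0.205) and -4.41 for vitamins against RANKL (SE 1.52, adjusted p = 0.0511), and in both the groups did not overlap. The second passed without replicate 2 of both RANKL groups (adjusted p = 0.0423). Dendritic cell markers were low and moved with it: 5 genes summed to 0.231 to 0.465 FPKM in the PBS group, 0.509 to 0.728 with RANKL and 0.0213 to 0.181 with vitamins, and 2 of 4 tested fell against RANKL. Flt3, a growth factor receptor of that lineage, had 0, 3 and 0 counts in the PBS group, 41, 44 and 54 with RANKL and 0 in each vitamin library (adjusted p = 0.00752 against RANKL), and Cd209a was at 0 in each vitamin library as well (adjusted p = 0.0117). Their part in the values of Ccl22, Ccr7 and Xcr1 was not tested. The remaining 18 genes did not pass the filter, with at most 19 counts in any library: Ccl8, Ccl17, Ccl21b, Ccl21d, Ccl27b, Ccl28, Cxcl5, Cxcl11, Cxcl12, Cxcl15, Cxcl17, Ccr1l1, Ccr4, Ccr6, Cxcr5, Ackr1, Ackr2 and Ackr3. Cxcl15, a ligand of lung epithelium, had 0 counts in all 9 libraries. Ccl21b, Ccl21d and Ccl27b share 96.9% to 100% of their 100-base words with other genes, so a count for them cannot be assigned to 1 copy.

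Other genes of cell attraction, outside the symbol rule, were read from a list of 12, of which 11 were in the table. Against RANKL, 2 rose and 4 fell with vitamins, beside 16.4% and 17.2% of all genes, and with RANKL alone 1 rose, beside 2.35%. Mif, a cytokine that also binds CXCR2 and CXCR4, was at 28.5, 31.7 and 34.8 FPKM in the PBS group, 49.9, 92.1 and 52.5 with RANKL and 118, 125 and 104 with vitamins, and rose by 0.89 with RANKL (SE 0.203, adjusted p = 0.0484) and by 0.99 with vitamins (SE 0.203, adjusted p = 0.00671). Ptafr, the receptor for platelet-activating factor, rose by 0.75 with vitamins (SE 0.205, adjusted p = 0.0216). The formyl peptide receptors, which sense bacterial peptides, fell: Fpr1 was at 47.7, 24.8 and 51.4 FPKM in the PBS group, 13.8, 6.49 and 10.4 with RANKL and 0.0376, 0.222 and 0 with vitamins (-6.72 against RANKL, SE 0.779, adjusted p = 0.000820), and Fpr2 fell by 4.51 (SE 0.750, adjusted p = 0.00311). Cmklr1, the signalling receptor for chemerin, fell by 3.67 (SE 0.340, adjusted p = 0.000362) while Ccrl2, which binds the same ligand, rose. C3ar1, the receptor for a complement fragment, fell by 0.77 (SE 0.125, adjusted p = 0.00274).

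Of 32 genes that carry the signal downstream of chemokine receptors, 31 were tested. With RANKL alone 1 rose, beside 2.35% of all genes, and against RANKL 4 rose and 12 fell with vitamins, beside 16.4% and 17.2%, with a median log2 difference of -0.17 beside -0.04 over all genes. Grk3, a kinase that switches off G protein-coupled receptors, was at 1.92, 2.32 and 1.55 FPKM in the PBS group, 12.5, 15.2 and 12.6 with RANKL and 3.10, 5.17 and 3.85 with vitamins. It rose by 2.67 with RANKL (SE 0.176, adjusted p = 0.000220) and fell by 1.60 when vitamins were added (SE 0.169, adjusted p = 0.000581). Both arrestins fell, by differences of -1.28 for Arrb1 (SE 0.248, adjusted p = 0.00569) and -0.66 for Arrb2 (SE 0.162, adjusted p = 0.0146). Prex1 and Rac2, which link receptors to the actin skeleton, fell (-0.77, SE 0.109, adjusted p = 0.00163, and -0.74, SE 0.174, adjusted p = 0.0119), and Elmo1, a partner of Dock2 in the same step, rose by 1.14 (SE 0.155, adjusted p = 0.00143). The inhibitory G protein subunits Gnai2 and Gnai3 went apart, by -0.45 (SE 0.137, adjusted p = 0.0326) and 0.74 (SE 0.144, adjusted p = 0.00556).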

How the data were processed

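Polyadenylated RNA of BMDMs was sequenced in 9 libraries, 3 per group, with groups and replicate numbers taken from the labels. The authors deposited whole-number counts per gene, not normalized, and FPKM values, which they scaled for transcript length and library size. The submitters' processing notes name cutadapt 1.9, HISAT2 2.0.4, StringTie 1.3.4d and edgeR. They name a human build, although the genes are mouse, and 90.6% of 28294 matched genes (46 of the 53 members) have the coordinates of GENCODE M21 on GRCm38. The value 4 was found 2.22 times as often as 3 and 5 were on average, which shows that counts and independent reads may differ, and floors cover counting error only. Whether counting used strand or shared reads between copies is not given in the sources used here.

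The counts were tested in R 4.3.3 with edgeR 4.0.16 (filterByExpr, TMM, quasi-likelihood test, 1 model of all 9 libraries, Benjamini-Hochberg adjustment over 17002 genes, threshold 0.05). The SE was the size of the log2 fold change divided by the square root of F. With 3 libraries a group, the smallest two-sided p of exact permutation is 0.1, so no such test was run. Same-numbered RANKL and PBS libraries deviated together (correlations of 0.122, 0.219 and 0.155), so the number was taken to pair them. This pairing was read from the same data. Vitamin libraries were not paired (with RANKL 0.00625, 0.0428 and 0.107, with PBS -0.0216, 0.0217 and 0.0237), yet the replicate block covered them too. Genes were named with values if they passed the filter and reached a mean of 1 FPKM in a group or were called. The other 10 tested members are given mainly by counts, with differences or p-values added after their values were seen. Of the genes that match the symbol rule, 1 is not reported here and is in no count of members, though it stayed in the fits. The members, lists and markers were chosen with earlier results of these data known. Columns of the authors' own comparisons were not used. Alternatives were RLE factors, DESeq2 1.42.0, limma 3.58.1 on log2(FPKM + 1) and log2(FPKM + 0.1), no filter, at least 50 counts in at least 3 libraries, only the 2 groups compared, a replicate block, each library left out and, added after the data were seen, replicate 2 of both RANKL groups left out. Promoter sequences came from RefSeq.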

Additional observations from a re-analysis of the deposited data

How the results depend on the processing

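Across other tools, filters, scalings and designs, 519 of 566 refitted fold changes of named genes kept their direction and their side of the threshold, 15 lost it, 29 gained it and 3 turned sign: for RANKL against PBS, Cxcl16 was 0.06 with limma at either pseudocount and Ccl5 was -0.02 with the replicate block. With 1 library left out, 580 of 675 kept both, 67 lost and 16 gained the threshold, and 12 turned sign, none of them past it. For vitamins against RANKL these were Ccl2 (-1.35 without vitamin replicate 2, up to 3.00) and Ccl7 (-1.70 without the same library, up to 2.24). For RANKL against PBS they were Ccl27a (-0.36 to 0.25), Ccl5 (-0.06 to 0.64), Ccr2 (-0.56 to 0.07), Cxcl16 (-0.15 to 0.07), Cxcr2 (-0.34 to 0.73) and Cxcr3 (-0.48 to 0.00). Without both replicates 2, the values that turned sign were -0.47 for Ccl7 against RANKL and, for RANKL against PBS, 0.24 for Ccl27a, 0.11 for Ccr2, 0.09 for Cxcl16, -0.23 for Cxcr2 and 0.04 for Cxcr3. For RANKL against PBS, the 614 genes called became 1699 with DESeq2, 1736 with only the 2 groups, 1382 without both replicates 2 and 126 to 1903 with 1 library left out. Members called higher went from 0 to 1 with DESeq2 (beside 6.47% of all genes), 2 with limma at either pseudocount (3.21% and 3.09%), 1 with at least 50 counts (3.72%), 3 with only the 2 groups (6.32%), 1 with the replicate block (3.16%) and 0 to 2 with 1 library left out. Members called lower went from 1 to 3 with DESeq2 (3.94%), 3 with only the 2 groups (4.29%), 3 without both replicates 2 and 0 to 5 with 1 library left out. For vitamins against RANKL, the 5725 genes became 8603 without both replicates 2 and 3199 to 8259 with 1 library left out, where members called higher were 4 to 6 and lower 6 to 17. For vitamins against PBS, leaving out 1 library gave 4766 to 8868 genes, 3 to 7 members higher and 7 to 16 lower. Shares of all genes by direction were not computed for the fits with 1 library left out. Nor were they for RANKL against PBS without both replicates 2. The member counts of those fits are therefore no result about the members. Both the smallest and the largest of these counts of all genes came from fits with fewer samples, and the cause was not tested. With the replicate block, Ccr1 (RANKL against PBS) and Ccl12 (vitamins against PBS, 4.06, adjusted p = 0.0401) gained a call and Cxcr2 (vitamins against PBS, -6.91, adjusted p = 0.0546) lost it, and of the 75 comparisons of named genes no other call changed. That block also covered the vitamin libraries, which were not paired by number, so its calls for vitamins are uncertain. Depth limits Ccl24, Cxcl9, Cxcr2 and Cxcr1, which were at 0 in every library of a group, so that their folds are bounds.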
